A study of Mus musculus with 3 samples.

Results

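The 10 genes of glycolysis described here were followed through the non-cardiomyocytes (non-CMs) of the mouse heart during pressure overload, out of 27998 genes counted per library. The 10 genes were the glucose transporter Slc2a1, the enzymes Hk2, Pfkl, Pfkp, Aldoa, Gapdh, Pgk1, Pkm and Ldha, and the regulator Pfkfb3. They were selected on the measured UMI counts of Gapdh in endothelial cells (ECs), whose level had been seen to be higher at 2 weeks of transverse aortic constriction (TAC) than in the healthy heart, and on their place in the pathway. The question was whether this difference is shared along the pathway. The Gapdh difference in ECs is therefore a description, and the members were chosen with it known. All 10 genes had at least 1 unique molecular identifier (UMI, a tag that marks 1 captured transcript) in each library.

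Glycolysis splits glucose into pyruvate in the cytosol and yields ATP without oxygen. GLUT1, encoded by Slc2a1, lets glucose enter the cell, hexokinase traps it as a phosphate, and phosphofructokinase commits it to breakdown. Aldolase, GAPDH, phosphoglycerate kinase and pyruvate kinase carry out later steps, and lactate dehydrogenase converts pyruvate to lactate so that the pathway can go on. ECs are known to draw much of their ATP from glycolysis even where oxygen is plentiful, and PFKFB3, which makes the strongest activator of phosphofructokinase, is known to drive this flux when vessels sprout. Several of these genes are known targets of the hypoxia-inducible factors, and Gapdh is also in wide use as a reference gene.

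The samples were ventricular non-CMs of male C57BL/6J JCL mice, wild-type in all 3 groups, in 1 droplet library per phase. The phases were the healthy control heart (0 weeks), adaptive hypertrophy (2 weeks of TAC) and heart failure (12 weeks of TAC), with TAC performed at 8 weeks of age. Phase and library coincided, and without replicates the phases could not be tested against each other. Intervals between phases below are 95% intervals of counting error only. After cells with fewer than 200 genes were left out, 3892 cells with 12287823 UMIs, 2231 cells with 4465929 UMIs and 792 cells with 1712728 UMIs remained at 0, 2 and 12 weeks. Only 9 cell barcodes were shared between libraries.

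Cells were assigned to a class when they had at least 3 UMIs of its marker genes and these made up at least 2/3 of the marker UMIs of all classes. None of the 10 glycolysis genes was used for this. The gate held 1086, 1772 and 303 ECs at 0, 2 and 12 weeks, 1255, 99 and 194 fibroblasts (FBs), 399, 66 and 40 mural cells, and 941, 189 and 168 blood cells. Cdh5, the endothelial cadherin, had a UMI in 80.1% of ECs and in 2.97% of FBs, Col1a1 in 91.1% of FBs and 1.46% of ECs, Acta2 in 91.5% of mural cells and 4.97% of ECs, and Tyrobp in 87.1% of blood cells and 2.18% of ECs. Mural cells also had Pecam1 in 33.1% and Cdh5 in 28.7% of cells. Other markers were less confined to their class than these examples. The FB marker Dcn had a UMI in 99.4% of FBs. It also had one in 19.7% of ECs, 36.4% of mural cells and 32.4% of blood cells. The median depth of ECs was 2206, 1500.5 and 1330 UMIs. Levels are therefore given as UMIs of a gene per 1000000 UMIs of its class in a library (CPM), a relative level, with no scaling for gene length because a 3' library gives 1 tag per transcript.

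The promoters of Gapdh, Pfkfb3 and Ldha are shown first because the ratios of these 3 genes between 2 and 0 weeks differed from each other in ECs. The windows are the 250 bases before a RefSeq transcription start in GRCm38.p6. The letters ACGTG or the reverse complement CACGT, a form of the core of a hypoxia response element, are in capitals. The other form, GCGTG or its reverse complement CACGC, was not searched, and the Gapdh window holds both of these. The Gapdh window is chr6:125165774-125166023, minus strand, the Pfkfb3 window chr2:11553930-11554179, minus strand, and the Ldha window chr7:46845554-46845803, plus strand. The Gapdh and Ldha windows lie inside the longer GENCODE models of these genes.

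Gapdh: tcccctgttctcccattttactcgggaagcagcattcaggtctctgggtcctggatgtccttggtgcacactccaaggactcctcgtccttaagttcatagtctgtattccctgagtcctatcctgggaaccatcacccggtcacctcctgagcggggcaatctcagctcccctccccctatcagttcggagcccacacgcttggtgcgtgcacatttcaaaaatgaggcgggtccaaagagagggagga
Pfkfb3: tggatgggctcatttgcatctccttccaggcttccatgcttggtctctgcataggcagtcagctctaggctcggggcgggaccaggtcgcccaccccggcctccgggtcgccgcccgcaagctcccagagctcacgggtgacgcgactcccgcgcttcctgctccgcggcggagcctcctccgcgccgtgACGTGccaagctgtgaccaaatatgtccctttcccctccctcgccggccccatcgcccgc
Ldha: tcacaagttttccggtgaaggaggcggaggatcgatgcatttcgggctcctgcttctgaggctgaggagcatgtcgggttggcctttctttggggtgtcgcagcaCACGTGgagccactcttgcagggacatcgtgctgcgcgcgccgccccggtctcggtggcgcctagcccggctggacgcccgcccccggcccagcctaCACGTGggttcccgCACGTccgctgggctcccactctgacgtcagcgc

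The Gapdh window held 0 matches to ACGTG or CACGT, the Pfkfb3 window 1 and the Ldha window 5. Overlapping matches on both strands were counted separately. A second start of Ldha held 0 matches and a second start of Pfkfb3 held 2. Of the 10 genes, 7 had a match before at least 1 start (Slc2a1, Hk2, Pfkfb3, Aldoa, Pgk1, Pkm and Ldha), against 18.5% of 27025 genes with a window. By window, 9 of 15 windows of the members and 16.6% of all 32851 windows held a match. Members with several starts had more chances of a match, and a match describes letters only.

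In ECs, Gapdh stood at 461 CPM at 0 weeks (1466 UMIs, interval 437 to 485), 678 CPM at 2 weeks (2291 UMIs, 650.1 to 706) and 485 CPM at 12 weeks (233 UMIs, 425 to 552). The 2-week level was 1.47 times the healthy level (1.38 to 1.57), and the 12-week level was 1.05 times the healthy level (0.913 to 1.21). From 2 to 12 weeks the ratio was 0.716 (0.623 to 0.820). The high value thus stood in the 2-week library alone, and 87.6% of the 8429 genes with at least 50 UMIs over both EC groups had a lower ratio at 2 weeks. Gapdh, which oxidizes glyceraldehyde phosphate, made up 26.3% of the UMIs of the 10 genes in healthy ECs, 33.8% at 2 weeks and 24.1% at 12 weeks.

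Some members shared the higher 2-week level in ECs and others did not. Aldoa, the aldolase 1 step before Gapdh, was at 359.6 CPM in healthy ECs, 466 CPM at 2 weeks and 558 CPM at 12 weeks. Its 2-week ratio was 1.30 (1.20 to 1.40) and its 12-week ratio 1.55 (1.35 to 1.78), so that Aldoa was highest at 12 weeks where Gapdh was near its healthy level. Pkm, the pyruvate kinase outside liver and red cells, was at 218, 244 and 281 CPM, with a 2-week ratio of 1.12 (1.01 to 1.24). Ldha went the other way. It had the highest level of the 10 genes in healthy ECs, 575 CPM (1828 UMIs), against 467 CPM at 2 weeks and 475 CPM at 12 weeks, and its ratios were 0.813 (0.759 to 0.870) and 0.827 (0.717 to 0.949).

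At the entry of the pathway the levels were low. Slc2a1 was at 11, 13.6 and 2.08 CPM in ECs, from 35, 46 and 1 UMIs, and its 2-week ratio of 1.24 had an interval from 0.780 to 1.98. Hk2, a hexokinase isoform bound to mitochondria, was at 10.1, 4.73 and 4.17 CPM from 32, 16 and 2 UMIs, which was below the minimum of 50 UMIs for a ratio. Of healthy ECs, 2.49% had an Hk2 UMI at a median of 2206 UMIs, against 51.5% of healthy FBs at 2978 UMIs. The part of free RNA from other cells in the Hk2 UMIs of ECs was not tested.

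The phosphofructokinase genes differed from each other. Pfkl, the liver type subunit, was at 47.5, 55.3 and 70.8 CPM in ECs, with a 2-week ratio of 1.17 (0.935 to 1.45). Pfkp, the platelet type subunit, was at 47.8, 36.7 and 47.9 CPM, with a 2-week ratio of 0.768 (0.601 to 0.980). Pfkfb3 was at 20.1 CPM (64 UMIs), 34.6 CPM (117 UMIs) and 10.4 CPM (5 UMIs), and its 2-week ratio of 1.72 (1.26 to 2.37) was the highest of the members. At 12 weeks its ratio was 0.518, from 5 UMIs, with an interval from 0.163 to 1.27. Among the members tested, Pfkfb3 and Gapdh thus had their highest EC level at 2 weeks, while Aldoa, Pkm and Pfkl had it at 12 weeks and Ldha at 0 weeks. Pfkp was as high at 12 as at 0 weeks. Slc2a1 had its highest value at 2 weeks too, within its counting error of the healthy value.

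**Figure D1:**
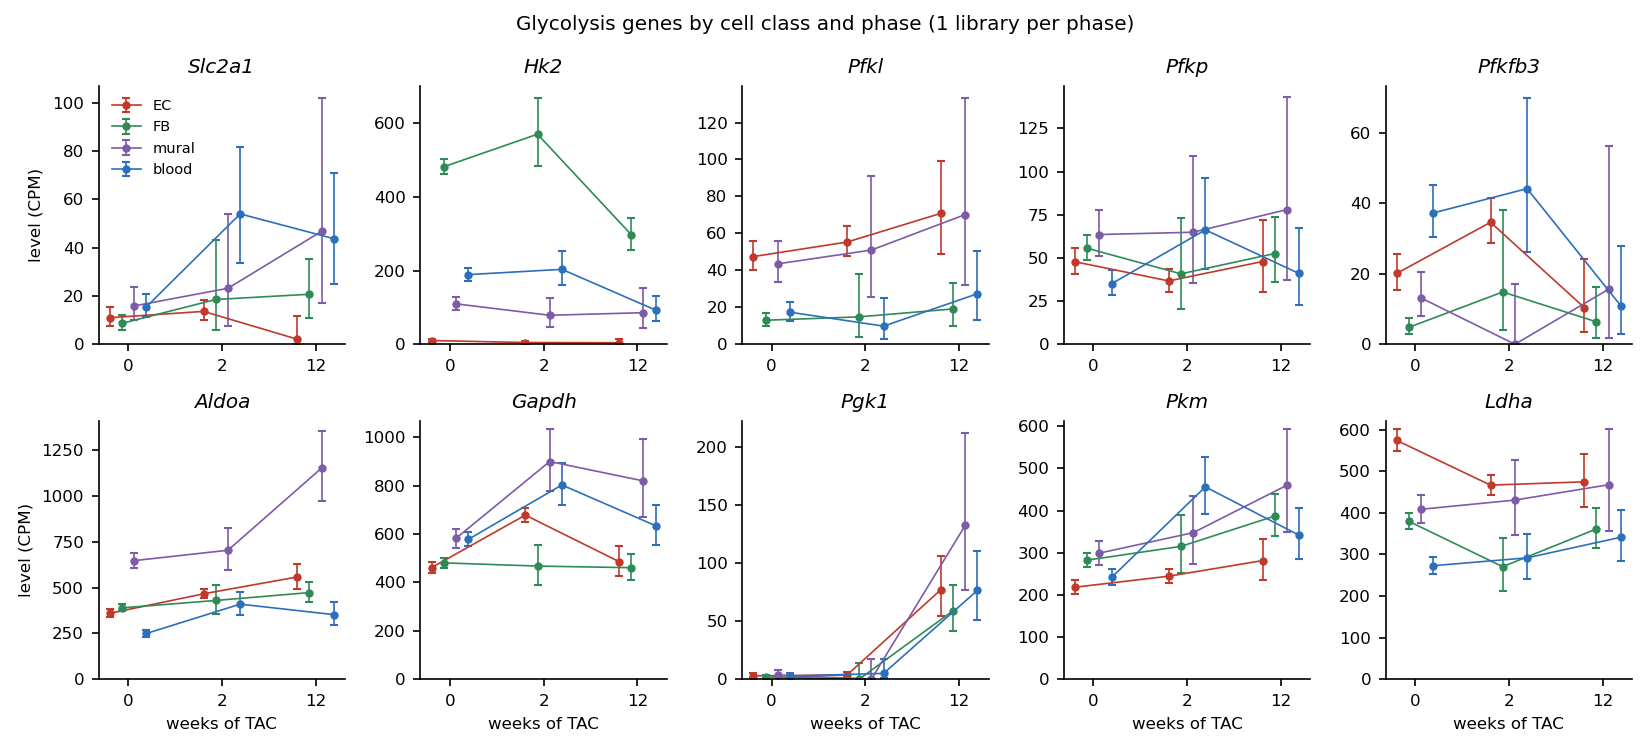
Level of each of the 10 genes (vertical axes, CPM) at 0, 2 and 12 weeks of TAC (horizontal axes) in ECs, FBs, mural cells and blood cells; points are the level of 1 class in 1 library, bars are exact Poisson 95% intervals, and lines only join the libraries. In ECs, Gapdh was highest at 2 weeks (678 CPM) and Ldha at 0 weeks (575 CPM), Hk2 was highest in FBs in each library, and Pgk1 was under 5 CPM at 0 and 2 weeks in all classes.

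Of the 10 genes, 8 had at least 50 UMIs over the healthy and 2-week ECs. Of these, 6 had a ratio above 1 and 2 below 1, against 52.1% of all 8429 genes above 1. Counting intervals lay above 1 in 4 (Pfkfb3, Gapdh, Aldoa and Pkm), below 1 in 2 (Ldha and Pfkp) and included 1 in the other 2. The share of such intervals over all genes was not computed. Only Pfkfb3 was past a 1.5-fold higher level, 1 of 8, against 11.5% of all 8429 genes, and 0 of 8 were past 1.5-fold lower, against 11.1%. The median log2 ratio of the 8 genes was 0.26, and that of all genes 0.02. Gapdh itself was used to choose the list, so this count supports nothing about it. The summed level of the 10 genes was 1752 CPM in healthy ECs (1707 to 1799), 2004 CPM at 2 weeks (1956 to 2052) and 2013 CPM at 12 weeks (1888 to 2144). The sum was equally high in both TAC libraries while its makeup differed. It includes Gapdh itself, at 461, 678 and 485 CPM, and Pgk1, at 2.83, 3.55 and 77.1 CPM. The sum therefore does not show a rise shared by the other genes.

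Transcripts of other cells differed between the EC groups as well. The summed level of 12 cardiomyocyte genes in ECs was 951, 671 and 238 CPM at 0, 2 and 12 weeks, that of 5 erythroid genes 99.6, 311 and 7044 CPM, and that of the FB markers 348, 64.2 and 448 CPM. Without the ECs that had 2 or more cardiomyocyte UMIs, 603, 1303 and 280 ECs remained. The 2-week ratio was then 1.502 for Gapdh, 1.82 for Pfkfb3, 0.788 for Ldha and 1.16 for Aldoa. Without these cells the Gapdh, Pfkfb3 and Ldha ratios lay at least as far from 1, and the Aldoa ratio lay closer to 1. The filter took out 483, 469 and 23 ECs at 0, 2 and 12 weeks, unequal shares of the libraries. Cells with fewer than 2 such UMIs stayed in. The part of cardiomyocyte transcripts in the 2-week ratios was not tested. Genes of the dissociation stress list were at 25349, 21709 and 19284 CPM in ECs, whose part in the results was not tested. The median mitochondrial share of ECs was 2.16%, 2.22% and 2.14%.

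The share of ECs with a Gapdh UMI was 63.5%, 60.2% and 47.5% at 0, 2 and 12 weeks, at median depths that fell in the same order. With each cell thinned to 1000 UMIs, which left out 0, 469 and 105 shallower ECs, the share was 35.4%, 46.8% and 38.4%. For Ldha the thinned share was 42.4%, 36.5% and 35.7%, and for Aldoa 31.4%, 37.3% and 44.6%. The thinned shares had the same order as the levels for Gapdh and Aldoa. For Ldha the healthy library was highest on both measures.

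ECs were further divided with marker lists for vessel types, and a cell was counted when it had at least 2 UMIs of a list and these were at least 2/3 of all vessel type marker UMIs. Capillary ECs, marked by genes such as Car4 and Rgcc, made up 70.2% of healthy ECs, 67.9% at 2 weeks and 55.4% at 12 weeks. Their Gapdh level was 476 CPM at 0 weeks and 681 CPM at 2 weeks, a ratio of 1.43 (1.32 to 1.55). In arterial ECs, 69 and 140 cells, it was 424 and 603 CPM, a ratio of 1.42 (1.06 to 1.93). In ECs of no vessel type, 205 and 387 cells, it was 378 and 670.0 CPM, a ratio of 1.77 (1.51 to 2.09). Each of these 3 groups of ECs had a higher Gapdh level in the 2-week library.

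The other genes varied among vessel types. Ldha had a 2-week ratio of 0.797 (0.736 to 0.863) in capillary ECs, 0.579 (0.427 to 0.783) in arterial ECs and 0.938 (0.801 to 1.10) in ECs of no vessel type. Aldoa was 1.39 (1.27 to 1.53) in capillary ECs and 0.981 (0.724 to 1.34) in arterial ECs. Pfkfb3 was 1.47 (1.01 to 2.16) in capillary ECs, under the 1.5-fold limit, and 2.25 (1.09 to 5.00) in ECs of no vessel type. Arterial ECs had 1 and 8 Pfkfb3 UMIs. Venous, endocardial and lymphatic ECs had at most 37 cells in a library.

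**Figure D2:**
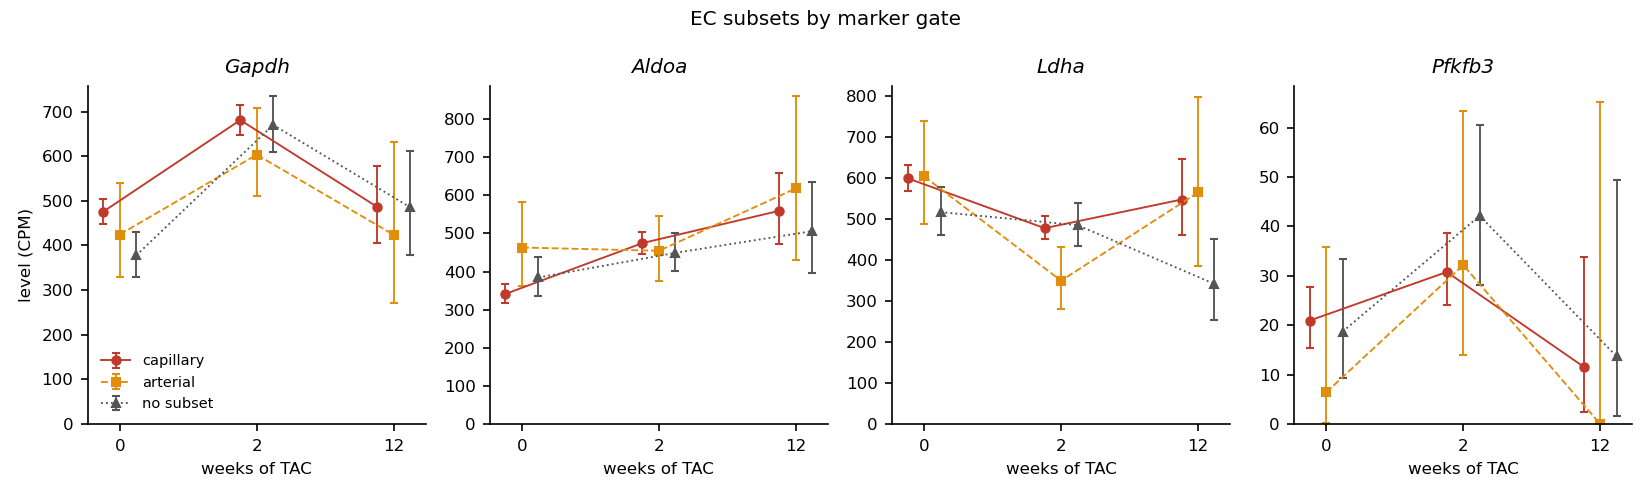
Level (vertical axes, CPM) of Gapdh, Aldoa, Ldha and Pfkfb3 at 0, 2 and 12 weeks of TAC (horizontal axes) in ECs gated as capillary, arterial or of no vessel type; points are the level of 1 group in 1 library and bars exact Poisson 95% intervals. Gapdh was highest at 2 weeks in all 3 groups, whereas Ldha in arterial ECs was lowest at 2 weeks (349.9 CPM).

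Beyond ECs, the 2-week Gapdh level was higher in mural cells and blood cells too and near its healthy value in FBs. In mural cells Gapdh was at 582, 899 and 819 CPM at 0, 2 and 12 weeks, with a 2-week ratio of 1.55 (1.32 to 1.81). In blood cells it was at 577, 802 and 634 CPM, with a ratio of 1.39 (1.23 to 1.57). In FBs it was at 480.2, 467 and 460.3 CPM, with a ratio of 0.972 (0.806 to 1.16), so that the 3 libraries did not differ beyond counting error. The EC ratio was 1.51 times the FB ratio (1.25 to 1.83), 0.951 times the mural ratio (0.803 to 1.13) and 1.06 times the blood ratio (0.923 to 1.21). The 2-week FBs were 99 cells with a median mitochondrial share of 7.59%, against 2.61% in healthy FBs, and the share was also higher at 2 weeks in mural cells (9.63% against 5.78%) and blood cells (4.35% against 2.68%). The part of this in the Gapdh values of these classes was not tested.

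Blood cells had higher 2-week levels at several steps of the pathway. Slc2a1 was at 15.5, 54.0 and 43.7 CPM in blood cells, a 2-week ratio of 3.48 (1.98 to 5.97). Pkm was at 241, 456 and 342 CPM, a ratio of 1.89 (1.60 to 2.23). Aldoa was at 249, 409.7 and 352 CPM, a ratio of 1.64 (1.38 to 1.95), and Pfkp at 35.05, 66.2 and 41.0 CPM, a ratio of 1.89 (1.18 to 2.92). The EC ratio was 0.592 times the blood ratio for Pkm (0.489 to 0.717), 0.790 times for Aldoa (0.656 to 0.951) and 0.406 times for Pfkp (0.249 to 0.662). Of 9 members tested in blood cells, 4 were past 1.5-fold higher, against 18.6% of 5236 genes, and 1 past 1.5-fold lower (Pfkl, from 4 UMIs at 2 weeks), against 20.6%. Ldha in blood cells was at 273, 292 and 342 CPM, with a 2-week ratio of 1.07 (0.874 to 1.30).

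The makeup of the blood class differed between libraries. Cells with macrophage markers were 91.7%, 72.5% and 35.1% of it, and cells with B cell markers 3.40% at 0 weeks and 37.5% at 12 weeks. Within macrophage-marked cells the 2-week ratios were 1.88 (1.55 to 2.26) for Pkm, 1.58 (1.30 to 1.92) for Aldoa and 1.40 (1.22 to 1.60) for Gapdh. These values were close to those of the whole class.

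In FBs, 0 of 7 members tested were past 1.5-fold in either direction at 2 weeks, against 19% higher and 20.9% lower among 7635 genes. Ldha in FBs was at 379.7, 271 and 362 CPM, a 2-week ratio of 0.713 (0.556 to 0.901). Its level was thus lower at 2 weeks in FBs as well as in ECs, while the mural ratio was 1.05 (0.838 to 1.31). In mural cells 1 of 7 members, Gapdh, was past 1.5-fold higher, against 13% of 4346 genes, and 0 past 1.5-fold lower, against 16.9%. Mural Aldoa was at 648, 704 and 1154 CPM, the highest level of any member in any class.

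**Figure D3:**
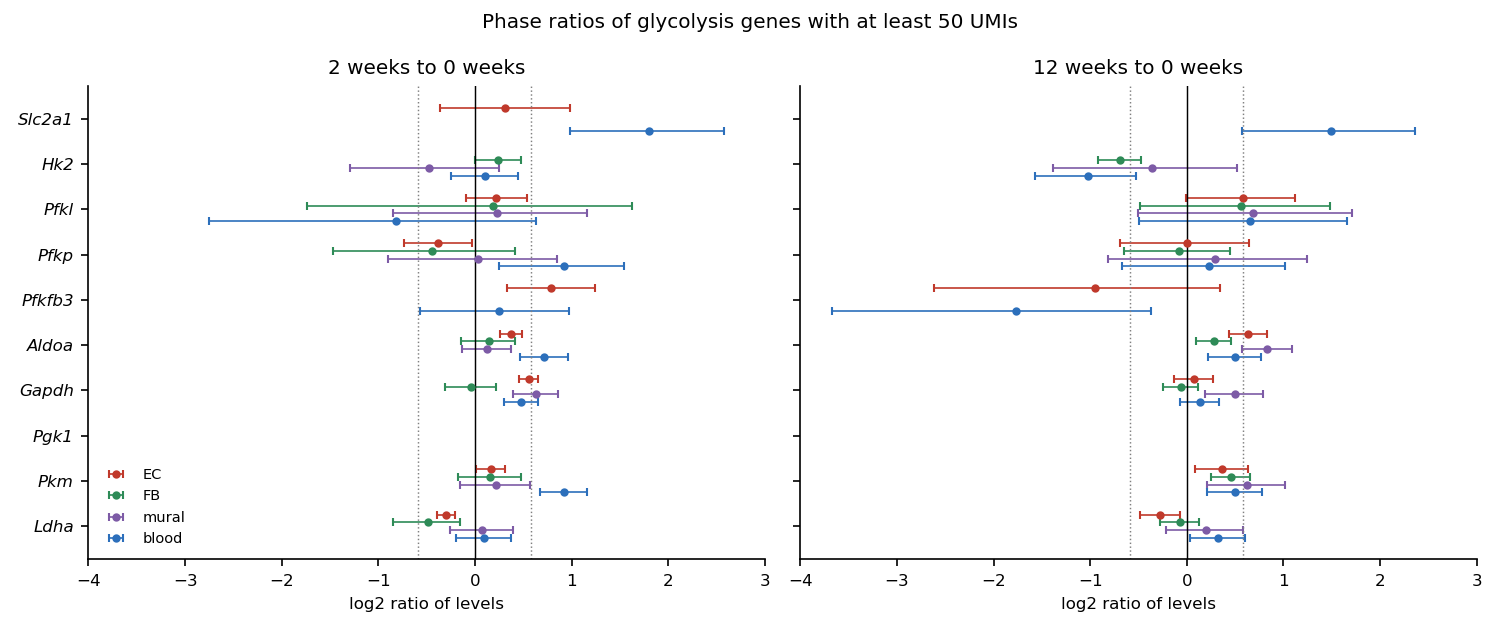
Log2 ratio of levels (horizontal axes) at 2 weeks to 0 weeks (left) and 12 weeks to 0 weeks (right) for members with at least 50 UMIs over both libraries of a class; points are colored by class, bars are 95% intervals of counting error, and dotted lines mark 1.5-fold. At 2 weeks the Gapdh ratio was above 1 in ECs (1.47), mural cells (1.55) and blood cells (1.39) and near 1 in FBs (0.972).

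At 12 weeks, 7 members could be tested in ECs. Aldoa was past 1.5-fold higher (1.55), 1 of 7 against 17.7% of 6922 genes, and Pfkfb3 past 1.5-fold lower, 1 of 7 against 14.4%. Pkm had a ratio of 1.29 (1.06 to 1.55) and Pfkl of 1.49 (0.997 to 2.18). The median log2 ratio of the 7 genes was 0.08, beside 0.07 for all genes. Without ECs that had cardiomyocyte UMIs the Aldoa ratio was 1.32, under the limit.

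Aldoa and Pkm were above their healthy level at 12 weeks in each class. The Aldoa ratio was 1.22 (1.07 to 1.38) in FBs, 1.78 (1.49 to 2.12) in mural cells and 1.41 (1.16 to 1.71) in blood cells. The Pkm ratio was 1.37 (1.19 to 1.57) in FBs, 1.54 (1.15 to 2.02) in mural cells and 1.42 (1.16 to 1.72) in blood cells. Hk2 was lower at 12 weeks in FBs and blood cells, where it had the most UMIs, at 298 CPM against 482 CPM in FBs (ratio 0.617, 0.529 to 0.717) and at 92.9 CPM against 189 CPM in blood cells (0.491, 0.336 to 0.695). In macrophage-marked cells alone the Hk2 ratio was 0.486 (0.276 to 0.797).

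Against the background of all genes, FBs at 12 weeks had 0 of 7 members past 1.5-fold higher (12.2% of 7911 genes) and 1 lower, Hk2 (13.6%). Mural cells, of which there were 40, had 3 of 7 higher, namely Aldoa, Pkm and Pfkl (15% of 4182 genes), and 0 lower (26.1%). Blood cells had 2 of 9 higher, Slc2a1 and Pfkl (20.8% of 5262 genes), and 2 lower, Hk2 and Pfkfb3 (22%). The Pfkl values rest on 9 UMIs in mural cells and 10 UMIs in blood cells at 12 weeks.

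Pgk1, which makes the first ATP of the pathway, had a pattern of its own. Its level was 2.83 and 3.55 CPM in ECs at 0 and 2 weeks (9 and 12 UMIs) and 77.1 CPM at 12 weeks (37 UMIs). In FBs it was at 1.92, 0 and 58.9 CPM, in mural cells at 3.45, 0 and 133 CPM, and in blood cells at 2.58, 4.91 and 76.5 CPM. The levels of 0 allow up to 11.1 CPM in FBs and 13.9 CPM in mural cells. The 12-week library thus held far more Pgk1 UMIs in each of the 4 classes, 27.3 times the healthy level in ECs (12.9 to 64.2), and the other libraries held at most 12 Pgk1 UMIs in a class. In ECs of these libraries Gapdh, the step before it, was at 461 and 678 CPM, and Pgam1, the step after it, at 95.2 and 98.5 CPM.

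Only 10 genes had at least 20 CPM and a level at least 4 times that of both other libraries in all 4 classes at 12 weeks, and Pgk1 was 1 of them. Over all cells Pgk1 was at 2.36, 3.36 and 75.3 CPM, Hist2h2aa1, a histone gene, at 1.22, 3.36 and 75.3 CPM and Gstp1 at 12.6, 12.1 and 319 CPM. The same limits gave 3 genes in the 2-week library and 0 in the healthy library. The 3 deposited matrices list the same genes in the same order. Phase and library cannot be told apart in the Pgk1 values, and whether reads of Pgk1 were counted in the same way for each matrix was not tested.

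A 3' count can miss genes whose end is shared with copies elsewhere, and this was measured on the GENCODE transcripts. Of all 50-base stretches in the last 500 bases of Gapdh, 90.5% were also found in other annotated genes (141 genes), and of its 100-base stretches 76.8% (62 genes). For Pgk1 the share of 50-base stretches was 7.32% (5 genes), for Aldoa 3.33% (2 genes), and for the other 7 members 0%. Of the 100-base stretches of Pgk1 and Aldoa, 0% were shared. Among the other 9 genes of the 12-week library, 6 shared over 50% of their 50-base stretches and 3 none. The share over all genes was not measured, so these counts have no background to be read against. Gapdh levels are thus uncertain to the extent that reads of shared stretches were left out or given to a copy. Its part in the phase ratios was not tested.

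Between classes, the 10 genes could be tested over the 3 libraries, with the library as block, by edgeR's quasi-likelihood test with Benjamini-Hochberg adjustment over 8030 genes. Hk2 set ECs apart most. It was at 482, 571 and 298 CPM in FBs at 0, 2 and 12 weeks, at 109.8, 78.8 and 85.8 CPM in mural cells, and at 189, 204 and 92.9 CPM in blood cells, with at most 10.1 CPM in ECs. The log2 difference of ECs was -6.19 ± 0.31 (SE, n = 3 libraries, edgeR adjusted p = 3.31e-10) against FBs, -3.85 ± 0.33 (adjusted p = 9.40e-08) against mural cells and -5.04 ± 0.31 (adjusted p = 5.46e-10) against blood cells. ECs were lower in 3 of 3 libraries each time, and the groups did not overlap.

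ECs instead had more Pfkl, the phosphofructokinase subunit, than FBs and blood cells. Pfkl was at 13.0, 14.8 and 19.1 CPM in FBs and at 17.3, 9.81 and 27.3 CPM in blood cells, below the 47.5 to 70.8 CPM of ECs in every library. The log2 difference was 1.86 ± 0.27 (edgeR adjusted p = 1.96e-05, n = 3) against FBs and 1.20 ± 0.26 (adjusted p = 0.00117) against blood cells. Against mural cells, at 43.5, 51.0 and 70.2 CPM, it was 0.09 ± 0.26 (adjusted p = 0.842).

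Pfkfb3 was higher in ECs than in FBs by 1.76 ± 0.49 on the log2 scale (edgeR adjusted p = 0.00831, n = 3) and lower than in blood cells (-0.99 ± 0.38, adjusted p = 0.0450). Both calls were lost without the healthy library (0.94, adjusted p = 0.377, and -0.69, adjusted p = 0.384) and with DESeq2 (adjusted p = 0.132 and 0.250). Pfkfb3 had at most 117 UMIs in any class of a library. Slc2a1 was lower in ECs than in blood cells (-1.84 ± 0.40, edgeR adjusted p = 0.00108), in 3 of 3 libraries. Against FBs its log2 difference was -0.38 ± 0.44 (adjusted p = 0.542).

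In the lower part of the pathway the classes lay closer together. Gapdh did not pass the test between ECs and FBs (log2 difference 0.12 ± 0.19, edgeR adjusted p = 0.684) and was lower in ECs than in blood cells (-0.69 ± 0.19, adjusted p = 0.00679), in 3 of 3 libraries. Against mural cells the difference was -0.52 ± 0.19 (adjusted p = 0.0517). It passed the test in 3 of 8 alternatives, among them DESeq2 (adjusted p = 0.00933). Aldoa was lower in ECs than in mural cells (-0.88 ± 0.20, adjusted p = 0.00277). Pkm was lower in ECs than in blood cells (-0.84 ± 0.20, adjusted p = 0.00279), a call lost without the 2-week library (-0.64, adjusted p = 0.0676). Pkm was also lower in ECs than in mural cells (-0.59 ± 0.21, adjusted p = 0.0409). This mural call was kept in only 3 of 8 alternatives and was lost without any 1 of the 3 libraries (highest adjusted p among these = 0.171).

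Ldha was the member of this lower part with a higher level in ECs. It was at 575, 467 and 475 CPM in ECs against 379.7, 271 and 362 CPM in FBs, higher in 3 of 3 libraries without overlap. The log2 difference was 0.53 ± 0.19 (edgeR adjusted p = 0.0370, n = 3). The call was kept in only 2 of 8 alternatives. Those that lost it included the fits without the healthy or the 2-week library (adjusted p = 0.233 and 0.248). Against mural cells and blood cells the difference was 0.19 ± 0.19 (adjusted p = 0.512) and 0.37 ± 0.19 (adjusted p = 0.128).

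Of the 10 genes, ECs were higher in 3 and lower in 1 against FBs, where 18.6% and 19.8% of all 8030 genes were called. They were higher in 0 and lower in 3 against mural cells, where 15.6% and 15% were called, and higher in 1 and lower in 5 against blood cells, where 23.6% and 21.3% were called. The median log2 difference of the members was 0.07 against FBs, -0.57 against mural cells and -0.56 against blood cells, beside 0.01, 0.09 and 0.07 for all genes. The libraries differ in phase, so that the 3 blocks are not replicates of a phase, and the sums of a library share its depth and free RNA.

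**Figure D4:**
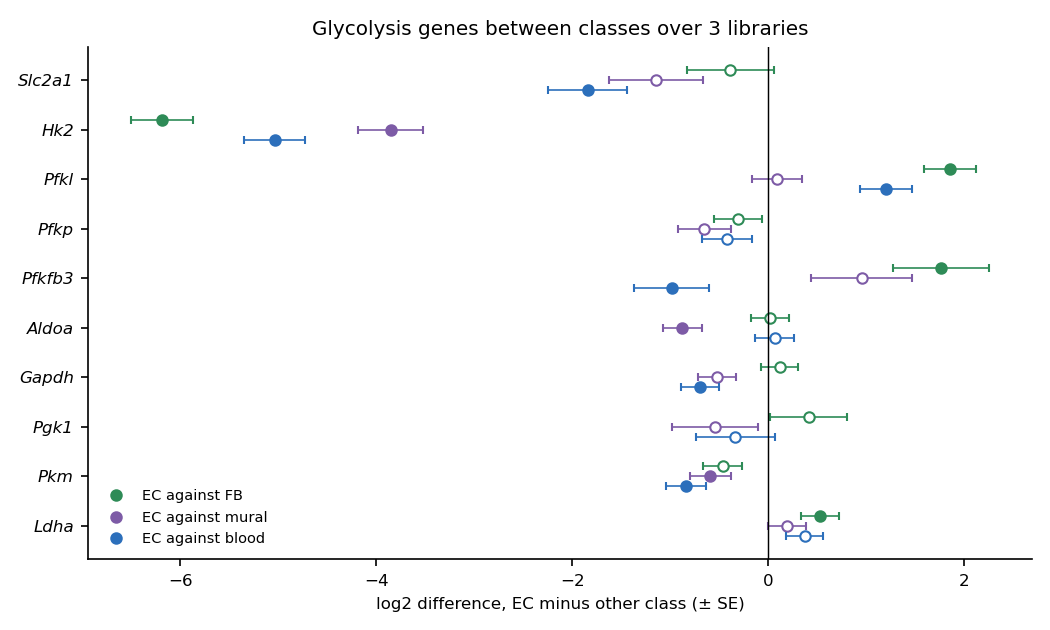
Log2 difference in level of the 10 genes between ECs and FBs, mural cells or blood cells (horizontal axis, ECs minus the other class); points are edgeR estimates over 3 libraries, bars are SE, and filled points have an adjusted p under 0.05. Hk2 was lower in ECs by 3.85 to 6.19 on the log2 scale, Pfkl was higher than in FBs and blood cells, and most other members lay within 1 of 0.

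A wider list of 23 glycolysis genes was counted in ECs at 2 weeks, and 10 of them had enough UMIs. Of these, 8 had a ratio above 1, against 52.1% of all genes. In either direction 0 were past 1.5-fold, against 11.5% of all genes higher and 11.1% lower. Eno1, the enolase, was at 88.0, 119 and 223 CPM, with a 2-week ratio of 1.35 (1.16 to 1.58) and a 12-week ratio of 2.53 (2.01 to 3.18), and 75.8% of its 50-base end stretches were shared with other genes. The isomerases Gpi1 and Tpi1 had 2-week ratios of 1.10 (0.977 to 1.23) and 0.867 (0.751 to 1.00), Hk1 of 1.10 (0.869 to 1.39) and Pgam1 of 1.03 (0.882 to 1.21). Hk1, the constitutive hexokinase, was at 43.1, 47.3 and 43.8 CPM in ECs, above Hk2 in each library. The counting intervals of Gpi1, Tpi1, Hk1 and Pgam1 all included 1.

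Of 8 genes of this list tested in ECs at 12 weeks, Eno1 and Bpgm (2.69, 1.37 to 5.02) were past 1.5-fold higher, against 17.7% of all genes. Eno3 and Ldhb (0.647, 0.361 to 1.08) were past 1.5-fold lower, against 14.4%. Bpgm, which makes the bisphosphoglycerate of red cells, stood beside the erythroid list at 7044 CPM in these ECs. Eno3, the muscle enolase, stood beside the cardiomyocyte list at 238 CPM. The part of these transcripts in Bpgm and Eno3 was not tested.

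Genes that handle pyruvate and lactate did not show a common direction in ECs at 2 weeks. Of 14 genes 9 were tested, 3 with a ratio above 1 and 6 below, against 52.1% of all genes above 1. Among all genes 11.5% were past 1.5-fold higher and 11.1% lower. Slc16a1, the lactate transporter MCT1, was past 1.5-fold higher (9.12 to 15.4 CPM, ratio 1.69, 1.05 to 2.76), and Dlat, a subunit of pyruvate dehydrogenase, past 1.5-fold lower (0.627, 0.442 to 0.885). Bsg, the chaperone of MCT1, had a ratio of 0.846 (0.789 to 0.906), and the mitochondrial pyruvate carrier genes Mpc1 and Mpc2 of 0.884 and 0.831. Of 7 genes of the pentose phosphate pathway 6 were tested, with 0 past 1.5-fold, beside the same shares over all genes. Pgls had the highest ratio among them, 1.35 (1.16 to 1.57).

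Known hypoxia targets outside glycolysis were mixed. Of 13 genes 12 were tested in ECs at 2 weeks, 4 past 1.5-fold higher against 11.5% of all genes, and 2 past 1.5-fold lower against 11.1%. Higher were Bnip3 (ratio 1.72, 1.36 to 2.18), Mif (1.71, 1.52 to 1.92), Ankrd37 (1.60, 1.38 to 1.86) and Egln1 (1.58, 1.30 to 1.91). Lower were P4ha1 (0.533, 0.449 to 0.632) and Adm (0.646, 0.546 to 0.763). Vegfa had a ratio of 0.941 (0.671 to 1.32). Genes with opposite values thus stood within the same list.

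Among regulators of the pathway, Epas1, which encodes HIF-2α, was at 369.95 CPM in healthy ECs, 649 CPM at 2 weeks and 635 CPM at 12 weeks, a 2-week ratio of 1.75 (1.63 to 1.89). Hif1a was at 62.5, 70.1 and 41.7 CPM, a 2-week ratio of 1.12 (0.924 to 1.36). Klf2, a flow-induced factor known to repress Pfkfb3 in ECs, was at 4486, 3449 and 3398 CPM, a ratio of 0.769 (0.750 to 0.788). Epas1 was the only 1 of 6 regulators tested past 1.5-fold at 2 weeks, against 11.5% of all genes higher and 11.1% lower.

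Genes in use as references in expression studies differed among themselves. Of 12 such genes tested in ECs at 2 weeks, 8 had a ratio above 1 and 4 below, against 52.1% of all genes above 1. Past 1.5-fold were 1 of the 12 higher and 0 lower, against 11.5% and 11.1% of all genes. B2m, which carries MHC class I to the surface, was past 1.5-fold higher (1.71, 1.67 to 1.75). Actb had a ratio of 0.961, Rplp0 of 0.947, Ppia of 1.16, Hprt of 1.09 and Eef1a1 of 1.15. Tbp had a ratio of 1.43, from 41 and 27 UMIs (0.858 to 2.42). Tpt1, which encodes an abundant translation-associated protein, had a ratio of 1.47, close to that of Gapdh.

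The genes whose levels over the 12 groups of class and phase were most like Gapdh were Abr, Atp5e, 1810013L24Rik, Rrn3 and Tmem135, with Pearson correlations of log2(CPM + 10) of 0.89, 0.88, 0.84, 0.83 and 0.82 among 8009 genes. No glycolysis gene was among them. Within the list, Gapdh had correlations of 0.66 with Slc2a1, 0.53 with Pkm, 0.47 with Aldoa and 0.02 with Ldha. The highest correlation between members was that of Pfkl and Ldha (0.83), and the lowest that of Hk2 and Pfkl (-0.81). The 12 points share libraries and depth, so that these values only describe.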

How the data were processed

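Droplet-based scRNA-seq of non-CMs had been performed with 3' v2 chemistry. The submitters' processing notes name Cell Ranger 2.0.0 and mm10. The authors deposited UMI counts per gene and cell, without normalization, and these raw counts were used. Whether several mice were pooled per library is not given in the sources used here, and samples were grouped by the labelled weeks of TAC.

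Cells with at least 200 genes were kept and gated by marker UMIs (at least 3, and at least 2/3 of all class marker UMIs). No doublet caller was run. Cells with mixed markers (187, 93 and 77 cells with no class) and neural cells (24, 12 and 10) were left out of the comparisons. Depth was 12287823, 4465929 and 1712728 UMIs, which set the precision of each level. UMIs were summed per class and library and given as CPM with exact Poisson intervals, ratios with conditional binomial intervals (95%, counting error only), and shares unthinned or after thinning to 1000 UMIs. A ratio counted as tested with at least 50 UMIs over both libraries, and as past the limit at 1.5-fold. A level of 0 was given the limit of 3 counts. Classes were compared with edgeR 4.0.16 (limma 3.58.1, R 4.3.3; TMM, filterByExpr, library as block, Benjamini-Hochberg, threshold 0.05), checked on simulated counts, with DESeq2 1.42.0 as an alternative. The SE given with edgeR was derived from its test, as the absolute log2 difference divided by the square root of the F statistic. Python 3.11.15 with numpy 2.4.6, scipy 1.17.1, pandas 2.3.3 and matplotlib 3.10.9 was used for the rest. The symbols Itgam and Ccl21a have several rows, which were summed.

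The members and gene lists were chosen with earlier results of these data known. Named genes were the 10 members, genes of the lists past 1.5-fold or with at least 50 UMIs in ECs, and the 5 genes most like Gapdh among those with at least 200 UMIs. Genes of the 12-week library and correlations between other members were named after their values were seen. A few genes of these lists are not reported here by name. Promoters came from RefSeq (GRCm38.p6), where all 10 members matched by symbol, and transcript ends from GENCODE (1 transcript per gene, both strands, over 141767 transcripts). Alternatives were other gates, cell filters, denominators, minimum counts, normalizations and each library left out.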

Additional observations from a re-analysis of the deposited data

Results flagged for a closer look

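Pfkp was flagged because its counting intervals lay on opposite sides of 1 in blood cells and ECs. At 2 weeks its ratio to 0 weeks was 1.89 (1.18 to 2.92) in blood cells and 0.768 (0.601 to 0.980) in ECs, and the difference was not tested, since each phase is 1 library. Ldha was flagged in the same way at 12 weeks, with a ratio of 1.25 (1.03 to 1.51) in blood cells and 0.827 (0.717 to 0.949) in ECs, again not tested. The blood class held 35.1% macrophage-marked and 37.5% B cell-marked cells at 12 weeks, against 91.7% and 3.40% in the healthy library, and in macrophage-marked cells the Ldha ratio was 1.09 (0.791 to 1.46). The neural-marked cells, which entered no comparison, also held UMIs of the 10 genes. Their summed level was 1287 CPM at 0 weeks (57 UMIs, 24 cells), 2162 CPM at 2 weeks (46 UMIs, 12 cells) and 1268 CPM at 12 weeks (20 UMIs, 10 cells), with intervals of 975 to 1667, 1583 to 2884 and 774 to 1958 CPM.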

How the results depend on the processing

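Of 308 values of phase ratios and their counts under alternatives, 291 stayed within the spread of counting error or 1.5 times the main count, 17 moved and 0 reversed. A minimum of 20 or 100 UMIs leaves the ratio of a gene unchanged, so those ratios stayed the same by construction. A ratio could reverse only where its main interval excluded 1. The Slc2a1 ratio in ECs at 2 weeks ranged from 0.931 to 1.83 and was labelled the same throughout. The Gapdh ratio in ECs at 2 weeks ranged from 1.43 to 1.55, Ldha from 0.778 to 0.848 and Pfkfb3 from 1.47 to 1.99. The number of members past 1.5-fold in ECs at 2 weeks, 1 in the analysis above, was 2 with a gate of at least 1 marker UMI, 2 with a minimum of 20 UMIs, 3 without cells with cardiomyocyte UMIs and 0 in capillary ECs. At 12 weeks, where it was 2, it was 1 when scaled to a median log2 ratio of 0, 1 with the mean over cells, 1 without cells with cardiomyocyte UMIs, 1 with a minimum of 100 UMIs and 5 with a minimum of 20 UMIs. Without ECs that had 2 or more UMIs of other class markers, an alternative chosen after seeing the data, the counts were 3 at 2 weeks and 0 at 12 weeks. A changed minimum changes which genes are counted, and for the other settings the cause was not tested. Removing ECs with erythroid UMIs, also chosen after seeing the data, left the counts at 1 and 2. No paired analysis was possible because each phase is 1 library, so that the phases share fewer than 2 replicate numbers. The comparison of classes already had the library as block.

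Of 261 values and counts of the class comparison, 238 were labelled the same, 16 lost and 5 gained the call, 2 counts moved and 0 reversed. A difference without a call in either fit was labelled the same even where its direction changed. Gapdh between ECs and FBs was 1 such case, with a log2 difference of 0.12 in the main fit and -0.08 to 0.24 over 8 alternatives, 0 of them called. Members called between ECs and FBs numbered 2 to 4 when 1 library was left out (2 without the healthy library), and those between ECs and mural cells 5 with the strict gate instead of 3. With 1 library left out, the counts were 2 in each case against mural cells and 5 to 6 against blood cells. Hk2 and Pfkl against FBs and blood cells kept their calls in all 8 alternatives. Depth limits Slc2a1, Hk2 and Pgk1 in ECs, where 3 counts equal 0.943, 0.887 and 6.25 CPM at 0, 2 and 12 weeks.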
